A study of Mus musculus with 16 samples.

Results

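The levels of 9 genes of neuroblasts, GABAergic forebrain neurons and dividing cells were described in the striatal transcriptomes of R6/1 and wild-type (wt) mice. The genes are Dcx, Sox4 and Sox11 of migrating neuroblasts, the homeobox genes Dlx1, Dlx2, Dlx5 and Dlx6 of GABAergic forebrain neurons, and Mki67 and Top2a of dividing cells. They were chosen by symbol, each of the 9 symbols matched 1 of the 55450 genes in the table, and 9 of 9 reached 10 counts in 4 or more of the 16 libraries, as 19363 genes did in all. Their counts per library ran from 26 for Top2a to 1338 for Dcx.

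Each library came from the freshly dissected striatum of 1 male mouse aged 14 weeks, and the 16 mice fall into R6/1 and wt classes of 4 mice each, named “good” and “poor”. The R6/1 line, B6.Cg-Tg(HDexon1)61Gpb/J on a C57BL/6J background, carries exon 1 of human HTT with an expanded CAG tract as a transgene, beside the mouse's own gene, and the wt mice were littermates of the transgenic males. “Good” and “poor” name the performance class of a mouse within its genotype, set by scores of rotarod, feet clasping and body weight, and the mice had been isolated before behavioural testing. The comparisons ask what the transgene and the worse phenotype go with in striatal RNA, and p-values measure the spread between the mice sequenced here. In bulk tissue, fewer cells of a type and less RNA per cell cannot be told apart.

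In the adult rodent forebrain, stem cells in the wall of the lateral ventricle, next to the striatum, divide and give rise to neuroblasts that migrate towards the olfactory bulb. Neuroblasts use doublecortin, the microtubule protein encoded by Dcx, while they move, and Sox4 and Sox11 are SoxC transcription factors that switch on neuronal genes in them. The Dlx genes lie in pairs transcribed towards each other, Dlx1 with Dlx2 and Dlx5 with Dlx6, and drive GABAergic fate. Ki-67, the product of Mki67, coats mitotic chromosomes, and topoisomerase II alpha, encoded by Top2a, untangles them.

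Total counts ran from 16155356 to 24897354 per library. The libraries carry running numbers in the table, and numbers 1 to 8 had at most 20250680 counts, against at least 21529188 in numbers 9 to 16. The first set holds wt “good” mice 1 and 4, mouse 1 of wt “poor”, mouse 2 of R6/1 “poor” and the 4 R6/1 “good” mice. Performance class within the R6/1 mice therefore goes with the library numbers, since 1 of 4 “poor” mice and 4 of 4 “good” mice are in the first set. The striatal identity of the tissue was seen in 8 markers of medium spiny neurons, the main cell type there, whose summed level ran from 4310 to 6912 counts per 1000000 (CPM) in wt mice. In R6/1 mice the sum was 1052 to 2647 CPM, and 8 of 8 markers fell (median log2 fold change -1.68), where 17.0% of all tested genes fell. Some libraries stood apart in ways that touch the 9 genes. Wt “good” mouse 1 had the lowest summed level of 10 ependymal markers, 18.5 CPM against 26.2 to 79.3 CPM in the other libraries. The ependymal genes Ccdc153 and Tmem212 and the choroid plexus gene Folr1 were at 0 counts in that mouse and in no other. R6/1 “poor” mice 1 and 3 had the highest summed levels of 7 lateral septal markers, 249 and 187 CPM against 58.2 to 116 CPM in the other libraries. They also had the highest sums of 8 hypothalamic markers, 34.7 and 22.4 CPM against 4.02 to 14.6 CPM. Wt “good” mouse 4 had 760 CPM of 8 cortical excitatory neuron markers, against 49.6 to 482 CPM in the other wt mice, and the lowest medium spiny neuron sum of the wt mice (4310 CPM), and R6/1 “poor” mouse 4 had 831 CPM of the cortical markers. Where leaving out these libraries changes a result on the 9 genes, both values are given. A gene is said to rise or fall where its adjusted p, by edgeR unless DESeq2 is named, was under 0.05. The edgeR values were corrected by Benjamini and Hochberg over the 19363 genes, except in fits with another count filter. DESeq2 applied its default filtering of genes by mean count before the correction. Where an edgeR log2 fold change carries a standard error (SE), it was derived from that fold change and the F value of its test.

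Of the 9 genes, 7 have an entry in the RefSeq promoter table for GRCm38.p6, and Dlx5 and Dlx6 have none there. The promoters of Top2a and Mki67, which hold several copies of the letters CCAAT, and of Dcx and Dlx2, with 1 copy each, are printed because the study follows the CCAAT-binding factor NF-Y. They run 5′ to 3′ on the strand of the gene and end before its most 5′ annotated start, and capitals mark CCAAT or its reverse complement ATTGG. The Dcx window is 158 bases of the minus strand at chrX:143933312-143933469, the Dlx2 window 250 bases of the minus strand at chr2:71546755-71547004, the Mki67 window 250 bases of the minus strand at chr7:135716380-135716629 and the Top2a window 250 bases of the minus strand at chr11:99024190-99024439.
Dcx: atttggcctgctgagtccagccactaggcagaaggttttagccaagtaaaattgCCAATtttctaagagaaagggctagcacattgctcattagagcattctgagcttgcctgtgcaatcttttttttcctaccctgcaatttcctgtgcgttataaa
Dlx2: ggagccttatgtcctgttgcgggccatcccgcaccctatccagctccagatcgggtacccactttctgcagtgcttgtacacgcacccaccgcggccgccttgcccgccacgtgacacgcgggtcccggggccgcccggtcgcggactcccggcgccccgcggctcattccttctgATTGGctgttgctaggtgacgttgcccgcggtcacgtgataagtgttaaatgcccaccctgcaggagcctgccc
Mki67: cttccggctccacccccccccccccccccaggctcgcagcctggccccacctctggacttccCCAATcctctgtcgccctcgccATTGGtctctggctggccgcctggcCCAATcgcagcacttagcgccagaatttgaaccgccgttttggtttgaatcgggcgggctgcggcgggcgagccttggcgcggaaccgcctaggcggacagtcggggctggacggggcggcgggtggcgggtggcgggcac
Top2a: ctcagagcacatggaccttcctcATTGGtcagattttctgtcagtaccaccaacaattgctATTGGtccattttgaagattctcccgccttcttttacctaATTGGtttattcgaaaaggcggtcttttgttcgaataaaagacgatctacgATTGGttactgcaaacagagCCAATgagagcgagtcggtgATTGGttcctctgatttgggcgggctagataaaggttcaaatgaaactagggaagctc

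Motifs were counted on either strand in the 250 bases before the RefSeq start, which for Dcx and Sox4 reach past the start of another annotated transcript, so that these windows are longer than the stretch before the most 5′ annotated start. The letters CCAAT occur 6 times at Top2a, 3 times at Mki67, 4 times at Sox4 (3 of them before its most 5′ annotated start) and once each at Dcx, Sox11 and Dlx2, and do not occur at Dlx1. At least 1 copy is held by 34.5% of 27025 promoters. TTTGAA, a core of the element found at many cell cycle genes, occurs 2 times at Mki67, 2 times at Top2a and once at Sox11, and 16.3% of promoters hold it. TAATTA, a core that homeodomain proteins bind, occurs once, at Dcx, outside the stretch printed here, and 4.90% of promoters hold it. A match of letters is a description of the window and not a binding site.

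Levels were compared between genes as CPM per kilobase of exon. Dlx6 stood highest over the 16 libraries at 12.9 ± 3.13 CPM per kb (SD, n = 16), followed by Dlx5 at 4.65 ± 0.578, Dlx1 at 3.78 ± 1.40, Dcx at 3.46 ± 0.875 and Sox11 at 2.98 ± 0.604. Neighbours among the last 4 did not differ beyond their spread. Dlx2 at 1.59 ± 0.525 and Sox4 at 1.22 ± 0.239 CPM per kb overlapped as well. Mki67 (0.650 ± 0.163) and Top2a (0.647 ± 0.250) were the lowest and at the same level. The coefficient of variation over the 16 mice was largest for Top2a (38.6%) and Dlx1 (37.0%) and smallest for Dlx5 (12.4%).

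**Figure D1:**
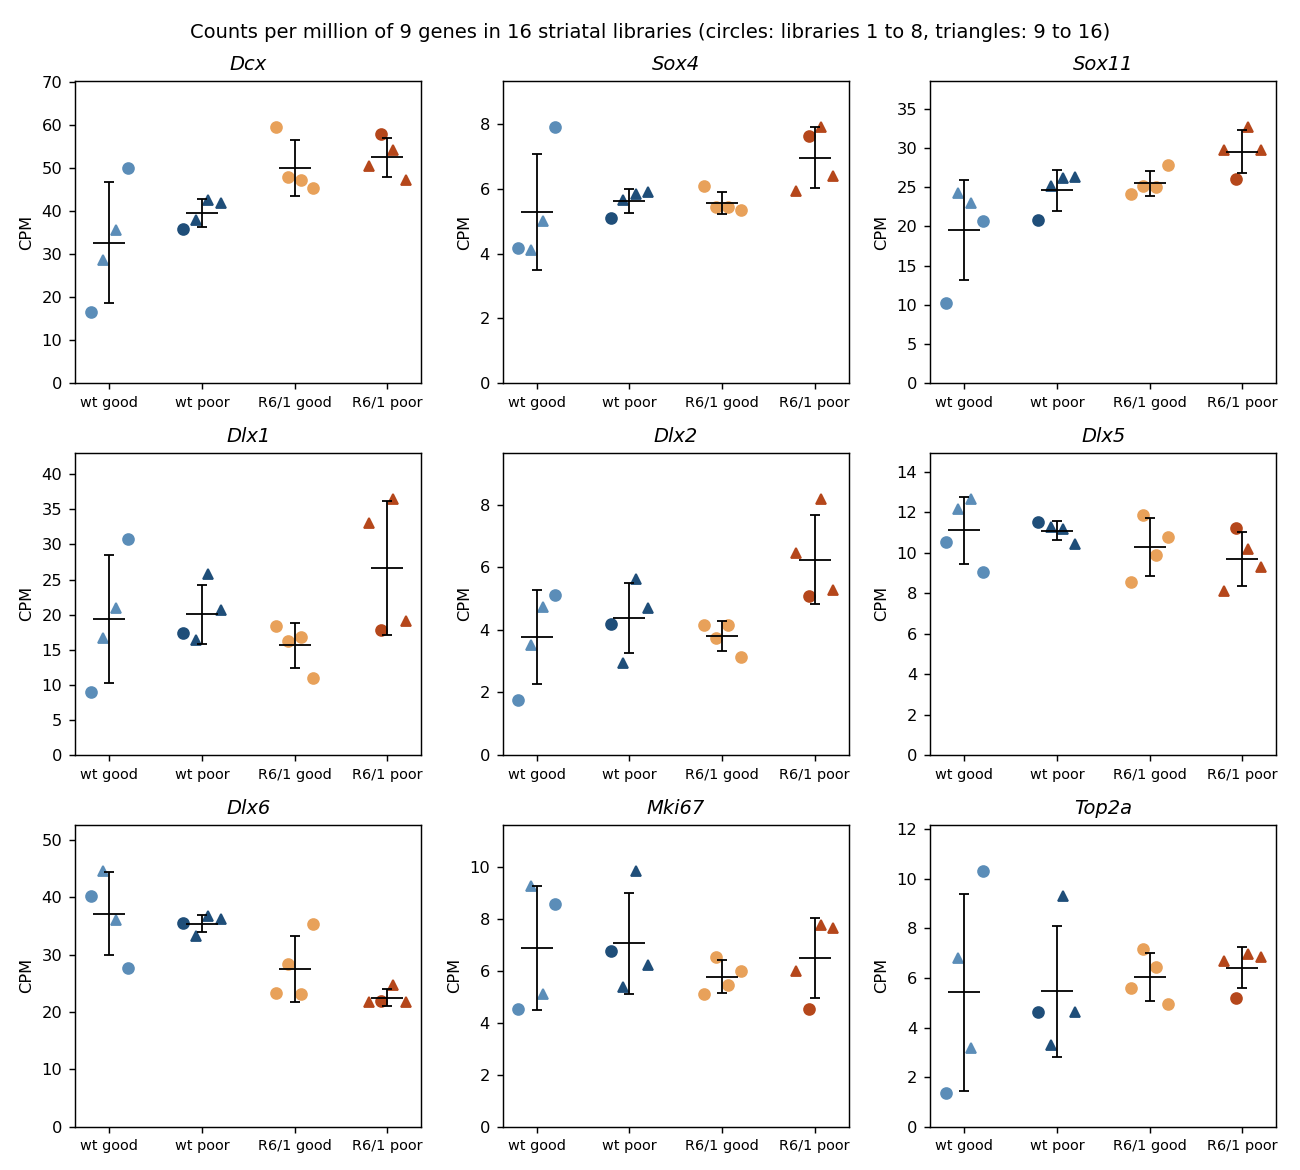
Levels in CPM (vertical axes, from 0) of the 9 genes in 16 striatal libraries, with 1 point per mouse, circles for libraries 1 to 8 and triangles for 9 to 16, horizontal bars at the mean of 4 mice and error bars of 1 SD. Dlx6 lies at 21.7 to 24.6 CPM in R6/1 “poor” mice, below the 8 wt mice, and wt “good” mouse 1 is the lowest point for Dcx, Sox11, Dlx1, Dlx2 and Top2a.

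Dcx (ENSMUSG00000031285, GRCm38 chromosome X, 143855842 to 143933311, minus strand) rose in the 8 R6/1 mice. Its level was 16.5, 28.7, 35.6 and 50.2 CPM in wt “good” mice 1 to 4 and 35.8, 37.9, 42.6 and 41.9 CPM in wt “poor” mice 1 to 4. In R6/1 “good” mice it was 59.6, 48.0, 47.3 and 45.5 CPM, and in R6/1 “poor” mice 50.6, 58.0, 54.2 and 47.3 CPM. Wt “good” mouse 4 reached the R6/1 range, and the other 7 wt mice lay below the 8 R6/1 mice. The mean was 36.1 ± 10.1 CPM in wt and 51.3 ± 5.34 CPM in R6/1 mice (SD, n = 8 each), a log2 fold change of 0.50 ± 0.15 (SE, adjusted p = 0.018, edgeR). Dcx was the 1 member of the 9 that rose in this comparison, in which 17.2% of all tested genes rose. The log2 fold change was 0.59 (adjusted p = 0.222) within libraries 1 to 8 and 0.44 (adjusted p = 0.0303) within libraries 9 to 16.

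Split by performance, Dcx gave a log2 fold change of 0.47 ± 0.21 in R6/1 “good” against the 8 wt mice (adjusted p = 0.131) and 0.54 ± 0.21 in R6/1 “poor” mice (adjusted p = 0.0676). Both comparisons share the wt mice. No member of the 9 was called higher in either, where 12.1% and 13.5% of all genes were. Single wt mice changed these calls. Without wt “good” mouse 1 Dcx gave 0.36 (adjusted p = 0.0476) in R6/1 “good” and 0.43 (adjusted p = 0.016) in R6/1 “poor” mice. Without wt “good” mouse 4, the wt mouse highest for Dcx and for cortical markers, the value in R6/1 “poor” mice was 0.62 (adjusted p = 0.0343). With all mice kept it was 0.54 (adjusted p = 0.029) by DESeq2. Between R6/1 “poor” and “good” mice the log2 fold change of Dcx was 0.08 ± 0.10 (adjusted p = 0.690).

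Sox11 (ENSMUSG00000063632, chromosome 12, 27334264 to 27342574, minus strand), a single-exon gene, stood at 10.2, 24.2, 22.9 and 20.7 CPM in wt “good” and 20.8, 25.2, 26.2 and 26.3 CPM in wt “poor” mice. It stood at 24.2, 25.1, 25.0 and 27.8 CPM in R6/1 “good” and 29.7, 26.1, 32.7 and 29.7 CPM in R6/1 “poor” mice. The genotypes overlapped, with wt “good” mouse 1 far below the rest. The log2 fold change over all R6/1 mice was 0.32 ± 0.14 (adjusted p = 0.0863), and without that mouse it was 0.21 ± 0.08 (adjusted p = 0.049), smaller and with a smaller error. With the library set as a covariate it was 0.43 (adjusted p = 0.00581), within libraries 1 to 8 0.57 (adjusted p = 0.0740) and within libraries 9 to 16 0.30 (adjusted p = 0.0235). The wt mice of libraries 1 to 8 are wt “good” mice 1 and 4 and wt “poor” mouse 1, at 10.2, 20.7 and 20.8 CPM. The covariate fit and the fit within libraries 1 to 8 were not repeated without wt “good” mouse 1. Against the wt mice, R6/1 “poor” mice gave 0.42 ± 0.18 (adjusted p = 0.104, and 0.31 with adjusted p = 0.0163 without wt “good” mouse 1) and R6/1 “good” mice 0.21 ± 0.18 (adjusted p = 0.441).

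Sox4 (ENSMUSG00000076431, chromosome 13, 28948919 to 28953713, minus strand) did not pass the test in any comparison. Its level was 4.17, 4.10, 5.005 and 7.91 CPM in wt “good”, 5.09, 5.66, 5.84 and 5.91 CPM in wt “poor”, 6.08, 5.45, 5.43 and 5.34 CPM in R6/1 “good” and 5.94, 7.63, 7.90 and 6.38 CPM in R6/1 “poor” mice. The groups overlapped, and wt “good” mouse 4 was as high as R6/1 “poor” mouse 3. Sox4 gave a log2 fold change of 0.35 ± 0.16 in R6/1 “poor” against wt mice (adjusted p = 0.115) and 0.03 ± 0.16 in R6/1 “good” mice (adjusted p = 0.912). Without wt “good” mouse 4, which had the highest cortical marker sum of the wt mice (760 CPM), the former was 0.44 (adjusted p = 0.0264). A lincRNA on the opposite strand, Gm26735, shares 2616 of the 4795 exon bases of Sox4 (54.6%), and since the strand setting of the counting is not given, reads of these genes may not be kept apart. Gm26735 had 20 to 67 counts per library.

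Dlx6 (ENSMUSG00000029754, chromosome 6, 6863334 to 6868568, plus strand), a homeobox gene of the ventral forebrain, fell in R6/1 mice. It stood at 40.3, 44.6, 35.9 and 27.7 CPM in wt “good” and 35.5, 33.3, 36.7 and 36.2 CPM in wt “poor” mice. In R6/1 “poor” mice it was 21.8, 21.96, 24.6 and 21.7 CPM, below the lowest wt mouse, and in R6/1 “good” mice 23.3, 28.3, 23.1 and 35.4 CPM. R6/1 “good” mouse 4 lay within the wt range, and mouse 2 just above the lowest wt mouse. Over all mice Dlx6 fell by 0.54 ± 0.10 on the log2 scale (adjusted p = 0.00069, edgeR), from 36.3 ± 4.92 to 25.0 ± 4.73 CPM (SD, n = 8 each). It was the one member of the 9 among the 17.0% of genes that fell. Summed medium spiny neuron markers, in mice 1 to 4, were 6736, 6912, 4550 and 4310 CPM in wt “good” mice. They were 1668, 2199, 1658 and 2647 CPM in R6/1 “good” mice, and both classes ranked as for Dlx6. The sums were 5639, 4572, 5192 and 4367 CPM in wt “poor” and 1052, 1447, 1184 and 1541 CPM in R6/1 “poor” mice, ranked otherwise. The part of these neurons in the Dlx6 level was not tested.

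In R6/1 “poor” mice Dlx6 fell by 0.69 ± 0.10 on the log2 scale against the wt mice (adjusted p = 0.000232), in a comparison in which 14.9% of all genes fell. The value within libraries 9 to 16 was -0.72 (adjusted p = 0.00209) and within libraries 1 to 8, with a single “poor” mouse, -0.65 (adjusted p = 0.193). In R6/1 “good” mice it fell by 0.40 ± 0.13 (adjusted p = 0.0337), where 12.4% of all genes fell. That call was lost, with log2 fold changes of -0.32 to -0.41, when R6/1 “good” mouse 1, 2 or 3 was left out (adjusted p = 0.115, 0.0685 and 0.107), when wt “good” mouse 1 or wt “poor” mouse 3 was left out (0.0517 and 0.0502), and within libraries 1 to 8 (-0.34, adjusted p = 0.228). The difference between R6/1 “poor” and “good” mice was -0.27 ± 0.13 (adjusted p = 0.334).

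Dlx6 lies within the antisense transcript Dlx6os1 (ENSMUSG00000090063, chromosome 6, 6820189 to 6871592, minus strand), a long non-coding RNA also known for regulating the locus, and shares 0 exon bases with it. Dlx6os1 had 35.4 to 46.3 CPM in wt “good”, 34.9 to 42.8 CPM in wt “poor”, 17.1 to 27.2 CPM in R6/1 “good” and 19.5 to 27.2 CPM in R6/1 “poor” mice. The genotypes did not overlap, and Dlx6os1 fell by 0.78 ± 0.09 on the log2 scale (adjusted p = 3.3e-06). Groups without overlap over all 16 mice were seen for 5.03% of all genes in the lower direction and 4.05% in the higher, and for 0 of the 9 members in either. Dlx5 (ENSMUSG00000029755, chromosome 6, 6877805 to 6882085, minus strand), the neighbour of Dlx6, did not pass the test. It stood at 9.04 to 12.6 CPM in wt “good”, 10.4 to 11.49 CPM in wt “poor”, 8.53 to 11.9 CPM in R6/1 “good” and 8.08 to 11.2 CPM in R6/1 “poor” mice. Its log2 fold change was -0.15 ± 0.09 over all R6/1 mice (adjusted p = 0.192), with overlap of all groups.

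**Figure D2:**
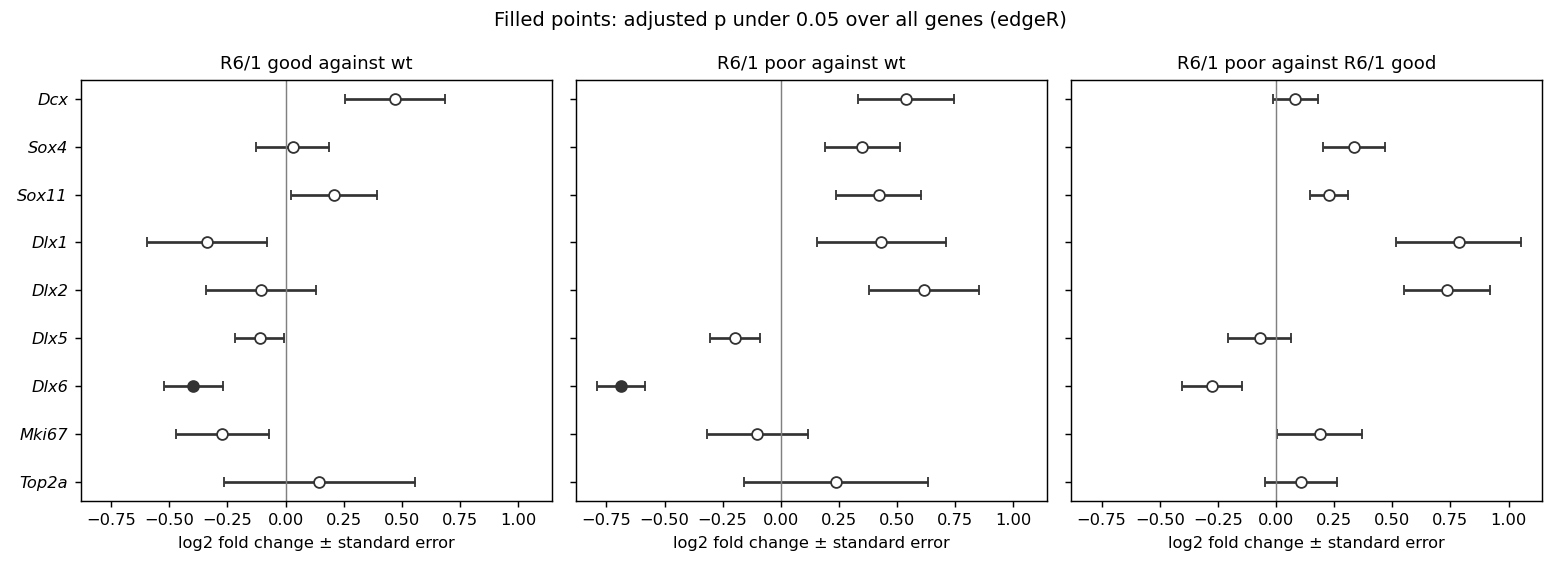
Log2 fold changes (horizontal axes) of the 9 genes with bars of 1 standard error in each R6/1 class against the 8 wt mice and between the R6/1 classes, with filled points for an adjusted p under 0.05. Dlx6 is filled at -0.40 and -0.69 in the first and second panel, and no point is filled in the third, where Dlx1 (0.79) and Dlx2 (0.74) lie farthest from 0.

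Dlx1 and Dlx2 (chromosome 2, 71528113 to 71533981 on the plus strand and 71543408 to 71546754 on the minus strand, ENSMUSG00000041911 and ENSMUSG00000023391) gave the largest differences of the 9 between the R6/1 classes. Dlx2 stood at 4.17, 3.73, 4.15 and 3.15 CPM in R6/1 “good” and 6.45, 5.07, 8.19 and 5.28 CPM in R6/1 “poor” mice, without overlap. Dlx1 stood at 18.4, 16.2, 16.8 and 10.99 CPM in R6/1 “good” and 33.0, 17.8, 36.5 and 19.1 CPM in R6/1 “poor” mice. The highest 2 values of both genes were those of R6/1 “poor” mice 1 and 3, and “poor” mouse 2 overlapped the “good” mice for Dlx1. The wt mice covered the range of the R6/1 “good” mice and lay below R6/1 “poor” mice 1 and 3 for both genes. Dlx2 was 1.77, 3.503, 4.73 and 5.11 CPM in wt “good” and 4.18, 2.95, 5.63 and 4.71 CPM in wt “poor” mice. Dlx1 was 9.03, 16.7, 21.0 and 30.8 CPM in wt “good” and 17.3, 16.4, 25.7 and 20.7 CPM in wt “poor” mice.

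Between R6/1 “poor” and “good” mice the log2 fold change of Dlx2 was 0.74 ± 0.18 (adjusted p = 0.248, edgeR) and that of Dlx1 0.79 ± 0.27 (adjusted p = 0.267, edgeR). By edgeR, 0% of genes passed an adjusted p of 0.05 in this comparison. DESeq2 called Dlx2 (0.74, adjusted p = 0.0298) and no other of the 9, and called 1.17% of genes higher. Groups without overlap in the higher direction were seen for 2.45% of genes and for 1 of the 9, Dlx2. At an unadjusted p of 0.05 edgeR had 3000 genes, 8.32% of the tested genes higher and 7.17% lower, and of the 9 members 4 higher (Dlx1, Dlx2, Sox4 and Sox11) and 0 lower. Sox4 stood at 0.34 ± 0.13 (adjusted p = 0.283) and Sox11 at 0.23 ± 0.08 (adjusted p = 0.271), and without R6/1 “poor” mice 1 and 3 at 0.34 and 0.14 (adjusted p = 0.940 each).

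R6/1 “poor” mice 1 and 3, the highest for Dlx1 and Dlx2, are those with the highest lateral septal and hypothalamic sums. The 7 septal markers summed to 58.2 to 99.2 CPM in R6/1 “good” and 67.8 to 249 CPM in R6/1 “poor” mice, 4 of 7 were called higher in R6/1 “poor” against wt mice (Trpc4, Zic2, Zic4 and Prdm12, named after their values were seen), and Prdm12 was at 0 counts in wt “poor” mouse 3. The 8 hypothalamic markers summed to 4.02 to 6.60 CPM in R6/1 “good” and 4.58 to 34.7 CPM in R6/1 “poor” mice, 1 of 5 tested was called higher in R6/1 “poor” against wt mice (Sim1), and Oxt was at 0 in 8 libraries, Hcrt in 7, Pmch and Sim1 in 6 and Avp in 3. The 10 ependymal markers summed to 26.2 to 40.6 CPM and 33.8 to 79.3 CPM in the same groups, with 1 of 9 called higher against wt mice in R6/1 “poor” mice and a median log2 fold change of 0.77 between them. In R6/1 “poor” against wt mice 13.5% of all genes were called higher. The part of these cells in the Dlx values was not tested. With R6/1 “poor” mice 1 and 3 left out together, a choice that removes the highest values of both genes, Dlx2 gave 0.46 ± 0.19 (adjusted p = 0.940) and Dlx1 0.25 ± 0.19 (adjusted p = 0.940) between the R6/1 classes. Against the wt mice, Dlx1 moved from 0.43 (adjusted p = 0.269) to -0.10 (adjusted p = 0.893) and Dlx2 from 0.61 (adjusted p = 0.0654) to 0.34 (adjusted p = 0.534) in R6/1 “poor” mice. Between the 1 “poor” and 4 “good” R6/1 mice of libraries 1 to 8, Dlx2 gave 0.43 and Dlx1 0.20 (adjusted p = 0.9999 each). Dlx6 stayed lower without the 2 mice, at -0.73 (adjusted p = 0.00684) in R6/1 “poor” against wt mice.

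Dlx1 and Dlx2 varied together among mice of each genotype. Among the 8 wt mice Pearson's r of log2 CPM was 0.941 (exact permutation p = 0.000372, adjusted p = 0.00149 over 8 relations) and Spearman's rho 0.976 (exact permutation p = 0.000397, adjusted p = 0.00159). Among the 8 R6/1 mice r was 0.950 (exact permutation p = 0.000223, adjusted p = 0.00149) and rho 0.976 (exact permutation p = 0.000397, adjusted p = 0.00159). With the 2 mice farthest from the median of Dlx1 left out, r was 0.917 and 0.850. For Dlx5 and Dlx6 r was 0.651 (exact permutation p = 0.0862, adjusted p = 0.115) with rho 0.238 (exact permutation p = 0.582, adjusted p = 0.582) in wt and 0.529 (exact permutation p = 0.178, adjusted p = 0.203) with rho 0.571 (exact permutation p = 0.151, adjusted p = 0.202) in R6/1 mice. Without the 2 farthest mice it was 0.357 and 0.366. The sets of libraries 1 to 8 and 9 to 16 hold fewer than 6 mice of a genotype, so no value within them is given. Dlx1 shares 335 of its 5396 exon bases (6.21%) with Dlx1as on the opposite strand, which had 33 to 94 counts per library, and the wt and R6/1 levels of Dlx1as were 2.73 ± 0.868 and 2.52 ± 0.550 CPM (SD, n = 8 each).

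Mki67 (ENSMUSG00000031004, chromosome 7, 135689784 to 135716361, minus strand) and Top2a (ENSMUSG00000020914, chromosome 11, 98992943 to 99024189, minus strand) did not pass the test in any comparison. Mki67 stood at 4.54, 9.26, 5.10 and 8.55 CPM in wt “good”, 6.75, 5.37, 9.84 and 6.22 CPM in wt “poor”, 5.10, 6.52, 5.43 and 5.99 CPM in R6/1 “good” and 5.98, 4.54, 7.74 and 7.65 CPM in R6/1 “poor” mice. Top2a stood at 1.36, 6.82, 3.18 and 10.3 CPM in wt “good”, 4.64, 3.29, 9.31 and 4.62 CPM in wt “poor”, 5.59, 7.16, 6.43 and 4.95 CPM in R6/1 “good” and 6.67, 5.21, 6.97 and 6.83 CPM in R6/1 “poor” mice. The wt range held every R6/1 value of Top2a and, but for R6/1 “poor” mouse 2, which stood just under the lowest wt mouse, of Mki67, with a coefficient of variation of 57.4% for Top2a against 13.7% in R6/1 mice. The log2 fold change over all R6/1 mice was -0.18 ± 0.16 for Mki67 (adjusted p = 0.414) and 0.19 ± 0.29 for Top2a (adjusted p = 0.641).

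The wt mice high for Mki67 were also high for Top2a. Their r was 0.928 (exact permutation p = 0.00062, adjusted p = 0.00165) and rho 0.929 (exact permutation p = 0.00223, adjusted p = 0.00595), with r at 0.957 without the 2 farthest mice. Among R6/1 mice r was 0.683 (exact permutation p = 0.0695, adjusted p = 0.111) and rho 0.691 (exact permutation p = 0.0694, adjusted p = 0.111), with r at 0.488 without the 2 farthest. Dcx and Dlx2 had r of 0.888 (exact permutation p = 0.0107, adjusted p = 0.0214) and rho of 0.738 (exact permutation p = 0.0458, adjusted p = 0.0917) in wt mice, which rests on wt “good” mice 1 and 4, since r fell to 0.534 without them. Their r was 0.376 (exact permutation p = 0.354, adjusted p = 0.354) with rho 0.500 (exact permutation p = 0.216, adjusted p = 0.247) in R6/1 mice and 0.915 without the 2 farthest.

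Wt “good” mouse 1 had the lowest level of the 16 mice for 5 of the 9 genes. As a ratio to the mean of the other 7 wt mice, it stood at 0.225 for Top2a, 0.403 for Dlx2, 0.423 for Dcx, 0.425 for Dlx1 and 0.428 for Sox11. The ratio was 0.622 for Mki67 and 0.740 for Sox4, and 0.944 for Dlx5 and 1.13 for Dlx6, the pair whose levels were not low there. The same mouse had the lowest sums of ependymal markers (18.5 CPM) and of cortical excitatory neuron markers (49.6 CPM against 58.4 to 831 CPM in the other libraries), whose part in these values was not tested. Its summed level of 10 neural stem cell markers, 193 CPM, was below the 202 to 229 CPM of the other 7 wt mice. It lay within the 174 to 229 CPM of all other libraries, as R6/1 mice reached lower sums.

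**Figure D3:**
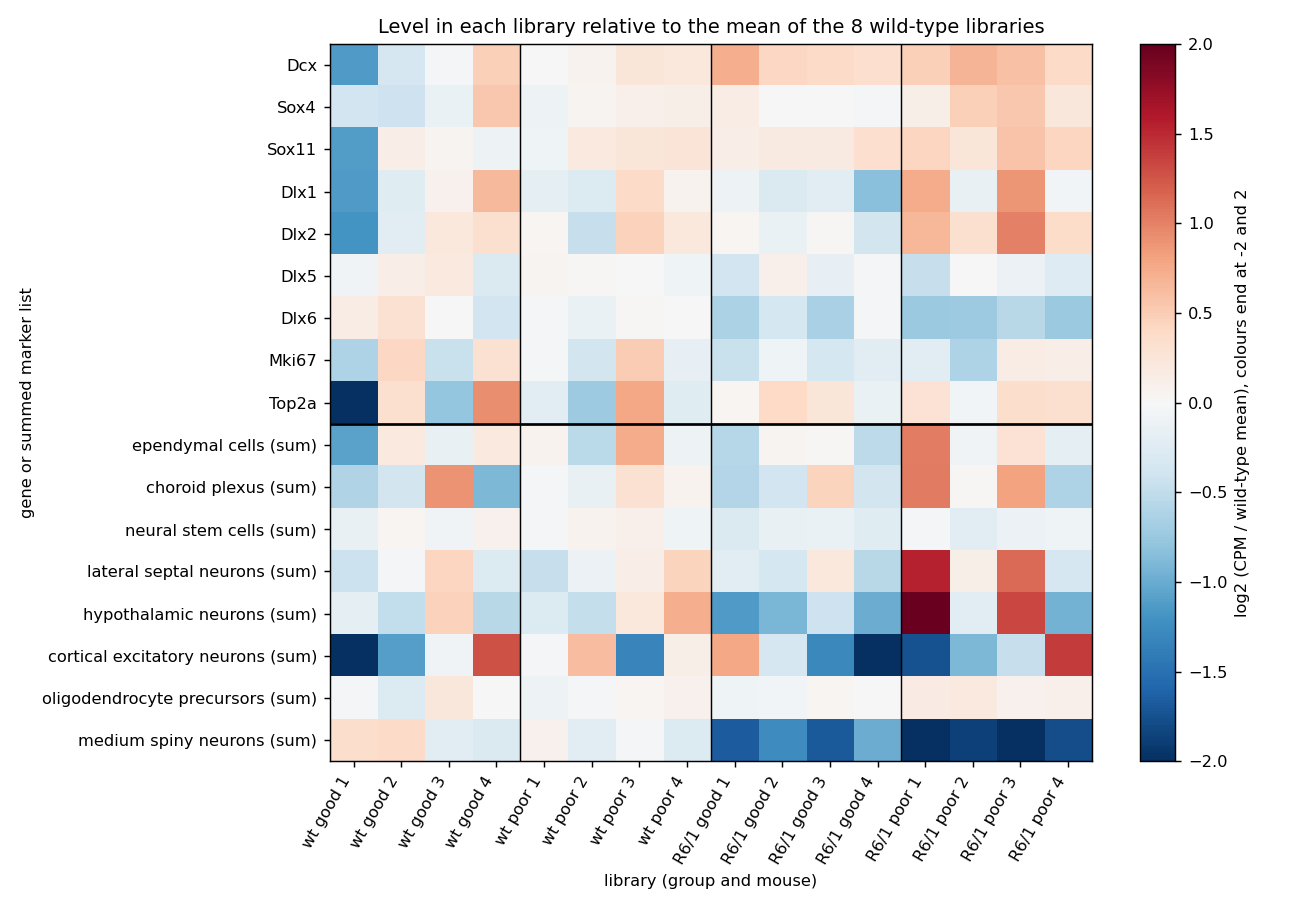
Log2 ratio of each library's CPM to the mean of the 8 wt libraries (colour, ending at -2 and 2) for the 9 genes and for summed marker lists (rows) in 16 libraries (columns). Wt “good” mouse 1 is blue from Dcx to Dlx2, at Top2a and at the ependymal sum, R6/1 “poor” mice 1 and 3 are red at Dlx1, Dlx2 and the septal and hypothalamic sums, and the medium spiny neuron sum is blue in the 8 R6/1 mice.

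Between wt “poor” and “good” mice the 9 genes had log2 fold changes from -0.07 to 0.34, with 0 genes called (0% of all genes by edgeR, 0 by DESeq2, and 472 at an unadjusted p of 0.05). Each had an adjusted p of 0.9998. For the interaction of genotype and performance, 0% of all genes were called by edgeR (1 by DESeq2, and 1118 at an unadjusted edgeR p of 0.05). The interaction of the 9 genes ran from -0.22 for Dlx6 to 0.72 for Dlx1 on the log2 scale, with a smallest adjusted p of 0.826 (Dlx1), so a difference between the genotypes in the effect of performance was not shown.

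Companion genes put the 9 in context. Of 25 other neuroblast genes, 3 rose and 3 fell over the 8 R6/1 mice, and the list had a median of 0.10 on the log2 scale, beside 0.02 over all genes. That is 12% of the list in each direction, against 17.2% of all genes higher and 17.0% lower. Levels within the list differed widely. Group means were 183 to 328 CPM for Stmn2 and 252 to 293 CPM for Tubb3, against 32.7 to 52.5 CPM for Dcx and 1.07 to 2.60 CPM for Sp8. How much of each level came from neuroblasts was not tested. Stmn2, a microtubule protein of growing axons, rose by 0.68 ± 0.18 (adjusted p = 0.00714), Dpysl3, a growth cone protein, by 0.55 ± 0.13 (adjusted p = 0.0025), and St8sia4, which makes polysialic acid, by 0.35 (adjusted p = 0.0479). St8sia2, the other polysialyltransferase, fell by 1.55 ± 0.16 (adjusted p = 2.1e-06), Nrep by 0.59 ± 0.10 (adjusted p = 0.000222) and the SoxC gene Sox12 by 0.29 (adjusted p = 0.0457). St8sia4 and Sox12 were named after their values were seen. In R6/1 “poor” against wt mice 6 rose and 3 fell (median 0.15), and in R6/1 “good” mice 0 rose and 3 fell (median -0.07), where 13.5% and 14.9% of all genes rose and fell in the “poor” and 12.1% and 12.4% in the “good” comparison. Without R6/1 “poor” mice 1 and 3, 0 rose and 2 fell in R6/1 “poor” mice. Calls over all 19363 genes also became fewer in that fit, with 640 higher and 1160 lower, against 2619 and 2892 with all mice. These comparisons share the wt mice. Between the R6/1 classes 22 of 25 had a positive log2 fold change, with a median of 0.24 and 0 called, against a median of 0.00 over all genes, and without R6/1 “poor” mice 1 and 3 it was 18 of 25 with a median of 0.14. Septal markers (7 of 7 positive, median 1.12) and cortical markers (8 of 8, median 0.58) were also higher in sign between these classes with 0 called, and their part was not tested. Between the wt classes 19 of 25 neuroblast genes were positive (median 0.11), and without wt “good” mouse 1 12 of 25 (median -0.02).

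Of 24 tested transcription factors of the forebrain GABAergic lineage, 6 fell and 1 rose over all R6/1 mice (median -0.19), which is 25.0% and 4.17% of the list against 17.0% and 17.2% of all genes, and Helt was under the count limit. Those that fell include Bcl11b (-0.86 ± 0.12, adjusted p = 2.8e-05), Foxp1 (-0.83 ± 0.14, adjusted p = 0.000197), Meis2 (-0.60 ± 0.10, adjusted p = 0.000254) and Maf (-0.52 ± 0.09, adjusted p = 0.000176). Bcl11b, Foxp1 and Meis2 are also factors of mature medium spiny neurons. Satb1, named after its value was seen, rose by 0.45 (adjusted p = 0.0431). In R6/1 “good” mice 6 fell and 0 rose (25.0% and 0% of the list), and in R6/1 “poor” mice 8 fell and 1 rose (33.3% and 4.17%). Of all genes, 12.4% fell and 12.1% rose in the “good” and 14.9% and 13.5% in the “poor” comparison. Of 6 tested transcripts of the Dlx loci and Dlx targets, 2 fell in each of these 3 comparisons, Dlx6os1 and Gad1, the GABA-synthesizing enzyme (-0.37 ± 0.09, adjusted p = 0.00444 over all R6/1 mice). Gad2 stood at -0.13 (adjusted p = 0.372) and the vesicular GABA transporter Slc32a1 at -0.10 (adjusted p = 0.433). Dlx3 and Dlx4 were under the count limit, with at most 4 and 10 counts in a library.

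Of 30 dividing cell genes besides Mki67 and Top2a, 9 rose and 3 fell over all R6/1 mice, with a median of 0.21. That is 30% and 10% of the list, against 17.2% and 17.0% of all genes. The spindle protein gene Tpx2 rose by 1.44 ± 0.16 (adjusted p = 2.1e-06), the condensin subunit Smc2 by 0.97 ± 0.09 (adjusted p = 6.8e-07), the cytokinesis factor Ect2 by 0.88 ± 0.17 (adjusted p = 0.000538) and the kinetochore motor Cenpe by 0.77 ± 0.15 (adjusted p = 0.000852). Mybl2 (-0.96, adjusted p = 0.00122), Plk1 (-0.80, adjusted p = 0.00238) and Kif15 (-0.39, adjusted p = 0.0213), named after their values were seen, fell. In R6/1 “good” mice 7 rose and 2 fell and in R6/1 “poor” mice 8 rose and 1 fell, against the shares of all genes given above for these classes. Without R6/1 “poor” mice 1 and 3, 2 rose and 0 fell in the “poor” class. In that fit 640 of all 19363 genes were higher and 1160 lower. Between the R6/1 classes 0 were called and the median was 0.00. Between wt “poor” and “good” mice 25 of 30 had a positive log2 fold change with 0 called (median 0.18), and without wt “good” mouse 1, whose summed level of the list was the lowest of the 16 (127 CPM), 15 of 30 (median 0.01). Of 22 DNA replication genes, 3 rose over all R6/1 mice, the ribonucleotide reductase subunit Rrm1 (0.32 ± 0.06, adjusted p = 0.000307), the polymerase clamp Pcna (0.23 ± 0.05, adjusted p = 0.000981) and the helicase subunit Mcm6 (0.45 ± 0.11, adjusted p = 0.00487), and 0 fell. The list thus had 13.6% higher and 0% lower, against 17.2% and 17.0% of all genes. Tyms, which makes thymidylate, stood at -0.20 ± 0.08 (adjusted p = 0.0502) over all R6/1 mice and was called lower in the “poor” class (-0.34, adjusted p = 0.00535). In each R6/1 class 3 of the 22 rose and 1 fell, in R6/1 “good” mice Ccnd1, a G1 cyclin named after its value was seen (-0.40, adjusted p = 0.0124). These counts are 13.6% and 4.55% of the list. Of all genes, 12.1% rose and 12.4% fell in the “good” and 13.5% and 14.9% in the “poor” comparison. Of 10 genes of the SoxB, SoxD and SoxE groups, Sox3 rose by 0.99 ± 0.19 (adjusted p = 0.000538), Sox9, a glial factor, fell by 0.42 ± 0.09 (adjusted p = 0.00134) and Sox21 fell by 0.28 ± 0.10 (adjusted p = 0.0306). With 10% of this list higher and 20% lower, the counts are near the 17.2% and 17.0% of all genes.

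**Figure D4:**
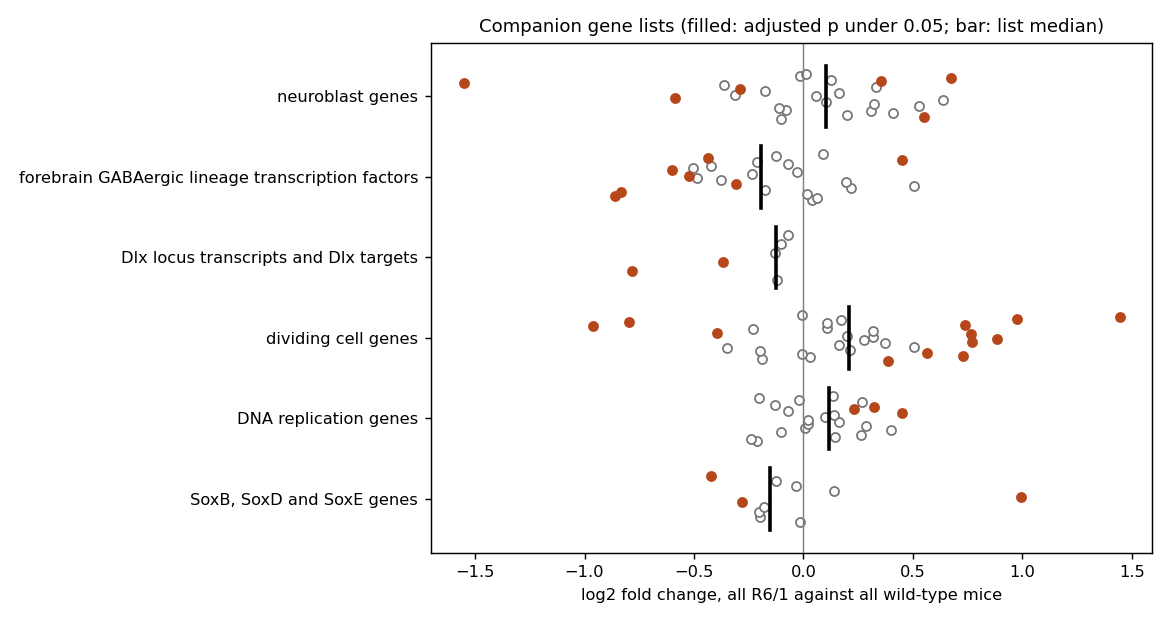
Log2 fold changes of the 8 R6/1 against the 8 wt mice (horizontal axis) for the genes of 6 companion lists (rows), with 1 circle per gene, filled for an adjusted p under 0.05, and a bar at each list's median. The medians lie between -0.19 and 0.21, and the dividing cell genes spread from Mybl2 at -0.96 to Tpx2 at 1.44.

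Markers of cells that could carry the 9 genes moved in their own ways. Over all R6/1 mice 17.2% of all genes rose and 17.0% fell, and 13.5% rose in R6/1 “poor” mice. Of 10 neural stem cell markers 6 fell and 1, Vim, rose over all R6/1 mice, 60% and 10% of the list (median -0.30). How much of these levels came from stem cells, and how much from other cells such as astrocytes, was not tested. Of 9 tested ependymal markers 1, Cfap126 (11.1%), was called higher in R6/1 “poor” mice and 0 over all R6/1 mice, and of 6 tested choroid plexus markers 1, Otx2 (16.7%), in R6/1 “poor” mice. Both shares are near that of all genes. Of 11 markers of oligodendrocyte precursors and the oligodendrocytes they form, Enpp6 and Tnr rose and 0 fell over all R6/1 mice (median -0.02). That is 18.2% of the list, near the share of all genes, and the precursor genes Pdgfra and Cspg4 were not called. Of 4 tested markers of olfactory bulb neurons, not all of them interneuron genes, Synpr, Doc2g and Th fell (median -0.63). Calb2 had a positive log2 fold change and was not called, and Eomes and Tbx21 were under the count limit. Of the other cell types, 7 of 8 microglial (87.5%), 7 of 8 endothelial (87.5%) and 4 of 8 astrocyte markers (50%) fell, 1 astrocyte marker rose, and 1 of 8 cortical markers, Rorb, fell (12.5%, under the share of all genes). The single marker genes are named here after their values were seen, and their part in the levels of the 9 genes was not tested.

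The genes most alike in pattern were found by Pearson's r of log2 CPM over the 16 libraries among 16217 genes, as a description over libraries that share genotype and depth. Dlx2 was most like Dlx1 (0.909) and Fam183b (0.902), and Dlx1 was most like Sp8 (0.922), a zinc finger factor of olfactory interneuron precursors, and Cadm1 (0.911). Top2a was most like the mitotic gene Aspm (0.958) and Uhrf1 (0.938), which copies DNA methylation at replication, and Mki67 like Thbs4 (0.883) and Rrm2 (0.848). For Dcx they were Neb (0.950) and Dsg2 (0.947), for Sox11 the transcript 9430053O09Rik (0.929) and Bag4 (0.889), and for Sox4 Srrm4 (0.857) and Plekha7 (0.849). For Dlx6 they were Fam173b (0.967) and Gm44593 (0.961), and for Dlx5 Ggct (0.828) and Arhgap30 (0.806).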

How the data were processed

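The authors deposited raw counts, whole numbers per gene for 55450 genes in 16 striatal libraries, 1 mouse each. They prepared stranded mRNA libraries, sequenced paired-end reads and mapped them to GRCm38 with TopHat 1.0.1. The submitters' processing notes also name Bowtie and CASAVA. Which read counter was used, and with what strand setting and annotation, is not given in the sources used here. Genes that overlap on opposite strands may therefore share reads. Gene positions and overlaps were taken from GENCODE M21 for GRCm38, and promoters from RefSeq.

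A gene entered the tests where 4 or more libraries had 10 or more counts, which 19363 genes did. Libraries held 16155356 to 24897354 counts. Differences were tested by the quasi-likelihood test of edgeR 4.0.16 (robust dispersions, TMM factors) with Benjamini-Hochberg adjustment over all kept genes and a threshold of 0.05. Each fit held the groups compared. R6/1 “good” and “poor” mice were each compared with the 8 pooled wt mice, with each other and together, and the interaction of genotype and performance was tested. CPM use TMM factors over the 16 libraries and are not corrected for gene length, except where given per kilobase of exon. Log2 CPM for likeness and correlations have a prior count of 2. Alternatives were DESeq2 1.42.0, the tool the authors used, RLE factors, a filter of 50 counts or none, 1 fit over all 16 mice, a block of replicate numbers, only controls of equal performance, the library set (running numbers 1 to 8 or 9 to 16) as a covariate or fits within a set, and leaving out each mouse. Where a fit within a set has 1 mouse in a group, its spread is taken from the other groups. Leaving out R6/1 “poor” mice 1 and 3 together, and list counts without single wt mice, were chosen after seeing the data. The fits were tested on simulated data.

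The 9 genes, the companion and marker lists and the library sets were chosen with earlier results of these data known. Besides the 9 genes, the text names up to 4 genes per companion list with the smallest p over all R6/1 against all wt mice, 2 genes per member most alike in pattern, and genes said to be named after their values were seen. Replicate numbers were not used to pair mice, since deviations of mice with the same number correlated between -0.346 and 0.233. Counts of mice of 1 group differed by more than sampling noise in every pair (chi-square per degree of freedom 5.53 to 38.4). Behaviour and qPCR were not analysed here. R 4.3.3, Python 3.11.15, numpy 2.4.6, pandas 2.3.3, scipy 1.17.1 and matplotlib 3.10.9 were used.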

Additional observations from a re-analysis of the deposited data

Results flagged for a closer look

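In 2 of 36 groups of 4 mice, 1 mouse lay far from the others, with a gap over the group's range above Dixon's critical value for 4 samples. Sox4 was highest in R6/1 “good” mouse 1 at 6.08 CPM, against 5.34 to 5.45 CPM in the other 3 mice. Dlx6 was highest in R6/1 “poor” mouse 3 at 24.6 CPM, against 21.7 to 21.96 CPM in the other 3. Chance alone flags about 1 in 20 groups, and 2 of 36 is near that rate.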

How the results depend on the processing

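RLE factors and a filter of 50 counts changed no call and no direction of the 9 genes. Members called higher in R6/1 “poor” against wt mice went from 0 to 2 (Dcx and Dlx2) by DESeq2, 1 (Dlx2) with the replicate block, 3 (Dcx, Sox11 and Dlx2) in 1 fit of all 4 groups, 2 (Dcx and Sox11) within libraries 9 to 16 and 1 (Dcx, 0.41, adjusted p = 0.00717) with wt “poor” mice as controls, and members called lower went from 1 to 0 within libraries 1 to 8. In R6/1 “good” against wt mice, members called lower went from 1 (Dlx6) to 0 with no filter (adjusted p = 0.0620), the replicate block (0.0601), the library covariate (0.177), within libraries 1 to 8 and against wt “good” controls alone (0.124), and 1 member (Sox11, 0.57, adjusted p = 0.0434) was called higher with the library covariate. The Sox11 fit with the library covariate compared the R6/1 “good” mice with the wt mice of libraries 1 to 8. Among these, wt “good” mouse 1 had 10.2 CPM of Sox11. Between R6/1 “poor” and “good” mice DESeq2 called 1 (Dlx2). Over all R6/1 mice, members called higher went from 1 (Dcx) to 0 with no filter (adjusted p = 0.0551), 0 within libraries 1 to 8, and 2 (Dcx and Sox11) with the library covariate and within libraries 9 to 16, and members called lower from 1 (Dlx6) to 0 (-0.40, adjusted p = 0.133) within libraries 1 to 8. The replicate block changed no other call of the 9 genes, and the numbers do not pair the mice.

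Leaving out 1 mouse gave 0 to 1 members higher and 0 to 1 lower in R6/1 “good”, 0 to 2 higher and 1 to 1 lower in R6/1 “poor” and 1 to 2 higher and 1 to 1 lower in all R6/1 against wt mice, with 0 in the other comparisons. The extra calls came without wt “good” mouse 1 (1 in R6/1 “good”, 2 in R6/1 “poor” and 2 in all R6/1 mice), without wt “good” mouse 4 (2 in R6/1 “poor” mice) and without wt “poor” mouse 3 (1 in R6/1 “poor” mice). Directions that turned under leaving out 1 mouse were those of Sox4 in R6/1 “good” (-0.020 to 0.12), Mki67 in R6/1 “poor” (-0.20 to 0.034), Dlx5 between the R6/1 classes (-0.15 to 0.0078) and Dlx1 over all R6/1 mice (-0.058 to 0.22).

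Other values near 0 turned as well. In R6/1 “good” against wt mice, Sox4 was -0.036 with the library covariate and -0.048 within libraries 1 to 8, and Dlx2 was 0.041, 0.030 and, with wt “good” controls, 0.0042. In R6/1 “poor” against wt mice within libraries 1 to 8, Dlx1 was -0.10, Dlx5 0.11 and Top2a -0.063. Between the R6/1 classes, the library covariate and libraries 1 to 8 alone gave 0.14 and 0.14 for Dlx5, -0.33 and -0.33 for Mki67 and -0.20 and -0.20 for Top2a. Over all R6/1 mice within libraries 1 to 8, Dlx1 was -0.25 and Dlx5 0.0028. Without R6/1 “poor” mice 1 and 3, Dlx1 was -0.10 against wt mice, -0.25 over all R6/1 mice, and Dlx5 0.0095 between the R6/1 classes. The cause of these changes was not tested, beyond the fewer mice of fits within a library set. Fits within libraries 9 to 16 could not be made where R6/1 “good” mice are needed, since none is in that set. The 9 genes had 26 to 1338 counts per library, which limits the precision of each value.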
